A study of Mus musculus with 9 samples.

Results

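The genes described here activate, inactivate, bind or answer to thyroid hormone: Dio2, Dio3, Thra, Thrb, Crym, Hr and Klf9. They were taken by gene symbol from the deposited table, where all 7 were found among 54513 genes, and all 7 were among the 18690 genes tested. They were picked with results of these same libraries and comparisons in view. Their differences between groups are therefore given as a description, without a p-value, and support nothing.

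The data were 9 RNA-seq libraries of polyadenylated RNA from tissue labelled as mouse hippocampus, 3 mice in each of 3 groups. All groups were kept for 12 weeks on a high-fat diet, which was the whole treatment of the HFD group. The Trp group ate this diet with tryptophan added at 0.5% by weight, and the IPA group was dosed with indole-3-propionic acid, a bacterial product of tryptophan, dissolved in saline and given by mouth once daily, 100 mg for each kg of mouse. The sources used here give no strain, genotype, sex or age, and do not say whether the HFD and Trp groups received saline. The libraries hold no group fed ordinary chow. In the table the HFD, IPA and Trp columns carry the codes WTB, HEB and HOB. The labels pair these codes with the samples and do not explain them, so that the groups are treatments only as far as the labels say so.

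The hormone made in largest amount by the thyroid, thyroxine, is a precursor. In the brain it is converted to the active triiodothyronine by the type 2 deiodinase, Dio2, which is found mainly in astrocytes and in the tanycytes that line the third ventricle, while the type 3 deiodinase, Dio3, inactivates both hormones and is found mainly in neurons. Triiodothyronine binds the nuclear receptors encoded by Thra and Thrb, which sit on DNA with a retinoid X receptor and hold corepressors until the hormone is bound. Hr and Klf9 are well-known targets of these receptors in brain, and the hormone is held in the cytosol by mu-crystallin, the product of Crym.

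Both deiodinases are selenoproteins, and their active sites hold selenocysteine, which is encoded by a TGA codon that is elsewhere a stop signal. The coding sequence around this codon is shown because it is the feature that both enzymes share while acting in opposite directions. The TGA codon of the active site is in capitals. It is codon 130 of Dio2 and codon 170 of Dio3 in the principal transcripts of GENCODE M21, and the Dio2 transcript has another annotated selenocysteine codon, codon 263, near its end.
Dio2: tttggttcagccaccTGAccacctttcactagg
Dio3: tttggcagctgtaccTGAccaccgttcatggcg

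Total counts ran from 40621084 to 50938746 per library. The libraries differed in transcripts of neighbouring regions. The summed level of 12 striatal markers ran from 743 to 2454 CPM (CPM relate a count to the size of its library, here after TMM scaling) in HFD, from 2428 to 3279 in IPA and from 1719 to 2462 in Trp. Markers of the hippocampus itself also varied. Prox1, a defining gene of dentate granule cells, ran from 10.3 to 42.3 CPM over the 9 libraries, and Lct, another marker of these cells, from 0.225 to 8.96 CPM. Of 8 dentate granule cell markers 8 lay below 0 in Trp against HFD (median log2 fold change -0.34) and 7 in IPA against HFD (median -0.70). Of 8 markers of CA pyramidal cells 4 lay below 0 in Trp against HFD (median -0.02) and 5 in IPA against HFD (median -0.39). None of these 16 was called. The summed levels, 269 to 349 CPM for the dentate list and 308 to 370 CPM for the CA list, differed less than Prox1 and Lct. Calb1 (172.5 to 243 CPM) makes up most of the dentate sum, which therefore hardly follows scarcer markers such as Lct. This reason does not extend to the CA sum. HFD 3 had the lowest striatal sum, and the highest sums of 5 blood cell genes (2212 CPM, against 233 to 732 in the other 8), of 8 oligodendrocyte markers (8293 CPM, against 4258 to 5524) and of 8 markers of thalamus and habenula (436 CPM, against 87.5 to 239). The blood cell sum was higher in all HFD libraries (571 to 2212 CPM) than in all IPA (248 to 399) and all Trp libraries (233 to 383), and 5 of 5 of its genes lay below 0 in both comparisons with HFD, with medians of -1.89, none of them called. The part of these differences in tissue makeup in the values below was not tested beyond leaving out single libraries. Nothing in the labels says how the tissue was dissected.

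The 7 genes covered a wide range of levels. On the FPKM scale (fragments per kilobase of gene and total fragments in the library, the authors' values, which allow genes to be compared) the mean over the 9 libraries was 251 for Thra, 60.8 for Klf9, 48.0 for Crym, 16.3 for Dio2, 7.11 for Thrb, 6.34 for Hr and 0.77 for Dio3. Neighbours in this order overlapped between libraries in 2 places. Klf9 ran from 44.3 to 73.5 FPKM and Crym from 40.7 to 59.6, and Thrb ran from 5.28 to 7.75 and Hr from 5.20 to 8.09. Thra, Dio2 and Dio3 overlapped with no neighbour.

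**Figure D1:**
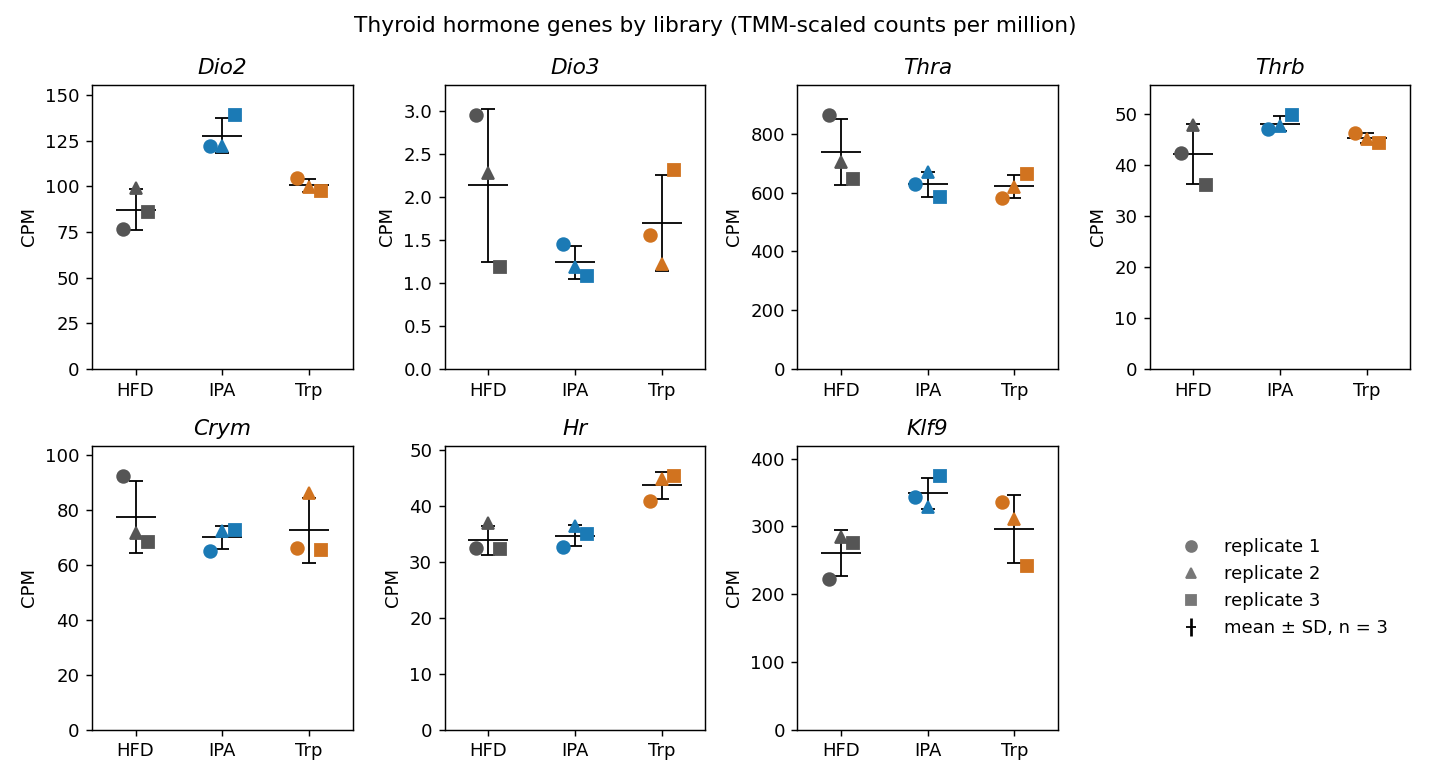
Level of each of the 7 genes in every library, in TMM-scaled CPM on linear axes that start at 0; symbols are the replicates, and the line and bar are the mean and SD of 3 libraries. Dio2 stood at 122 CPM or more in IPA and at 104.6 CPM or less in all libraries of the other groups, and Hr stood at 41.03 CPM or more in Trp alone.

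Dio2, which makes the active hormone, was highest in the IPA group. Replicates 1, 2 and 3 are listed in that order throughout. Its level was 76.6, 99.1 and 85.9 CPM across the HFD libraries, 122.1, 122.3 and 139 CPM across IPA and 104.6, 99.8 and 97.4 CPM across Trp. All IPA libraries lay above all HFD and all Trp libraries, and the Trp libraries overlapped with HFD. HFD averaged 87.2 ± 11.3 CPM, IPA 128 ± 9.68 and Trp 101 ± 3.64 (SD, n = 3 for these and all group means). On the log2 scale IPA differed from HFD by 0.55 (SE 0.10), Trp from HFD by 0.21 (SE 0.10) and Trp from IPA by -0.35 (SE 0.10). The IPA difference from HFD, 1.47-fold, was 0.54 without HFD 3 and ran from 0.47 to 0.65 over all alternatives. Trp against IPA was smaller on the authors' FPKM, as given in the closing section, and the difference of Trp from HFD ran from 0.12 to 0.31.

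Markers of the cells known to make Dio2 overlapped between the groups. The summed level of 10 astrocyte markers was 3416, 3454 and 3629 CPM across the HFD libraries, 3706, 3319 and 3241 CPM across IPA and 3407, 3434 and 3162 CPM across Trp. Of these 10 markers 4 were higher and 6 lower in IPA than in HFD (median -0.04, log2), and none was called. Among 6 tanycyte markers Rax, a defining homeobox gene of these cells, gave 0 to 5 counts and Fndc3c1 0 to 5 counts per library, and the sum of the list was 55.8 to 58.4 CPM in HFD, 51.04 to 61.9 in IPA and 48.8 to 56.4 in Trp. The striatal sum given above was higher in IPA 2 and IPA 3 than in all HFD libraries, with IPA 1 just below HFD 2. Of the 12 striatal markers 12 lay above 0 in IPA against HFD (median 0.76) and 12 in Trp against HFD (median 0.43). In Trp against IPA 12 lay below 0 (median -0.41), and none was called in any comparison. Dio2 and Klf9 had the same signs in these comparisons. The part of striatal content in the Dio2 and Klf9 values was not tested. In whole tissue, fewer cells of a type and less RNA per cell cannot be told apart.

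Dio3, which removes the active hormone, was the lowest of the 7 and the most variable. It gave 138, 113 and 50 counts across the HFD libraries, 58, 48 and 46 across IPA and 80, 51 and 115 across Trp. These are 2.96, 2.28 and 1.19 CPM, then 1.45, 1.18 and 1.09 CPM, then 1.56, 1.22 and 2.32 CPM. HFD 1, HFD 2 and Trp 3 were the high libraries, HFD 3 lay among the IPA values, and all 3 groups overlapped. Log2 differences were -0.79 (SE 0.34) between IPA and HFD, -0.33 (SE 0.33) between Trp and HFD and 0.46 (SE 0.34) between Trp and IPA. With limma on log2(FPKM + 0.5) the first was -0.45. Single libraries moved these values: IPA against HFD was -0.49 without HFD 1 and -1.08 without HFD 3, Trp against HFD was -0.03 without HFD 1, -0.15 without Trp 2 and -0.62 without HFD 3 or Trp 3, and Trp against IPA was 0.17 without Trp 3.

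Set against each other within a library, the activating enzyme exceeded the inactivating one throughout. The ratio of Dio2 to Dio3 FPKM was 8.84, 14.6 and 25.1 across the HFD libraries, 29.4, 35.1 and 44.2 across IPA and 23.3, 28.1 and 14.3 across Trp. All IPA libraries were above all libraries of the other groups, while HFD and Trp overlapped. The HFD ratios averaged 16.2 ± 8.26, the IPA ratios 36.2 ± 7.48 and the Trp ratios 21.9 ± 7.01. Transcripts do not measure enzyme activity, and the ratio carries the spread of Dio3.

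**Figure D2:**
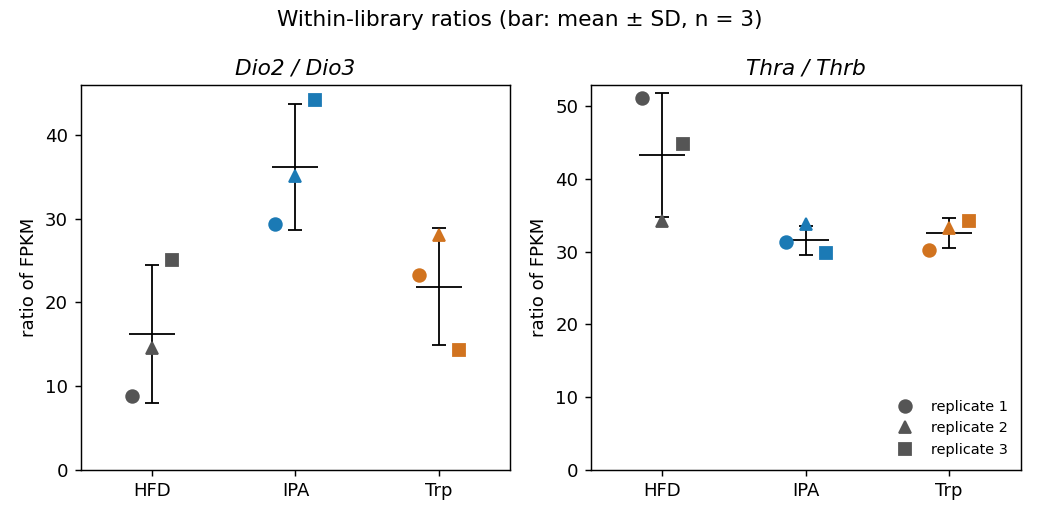
Ratio of FPKM of Dio2 to Dio3 (left) and of Thra to Thrb (right) within each library, on linear axes that start at 0; symbols are the replicates, and the line and bar are the mean and SD of 3 libraries. The Dio2 to Dio3 ratio of the IPA libraries, 29.4 to 44.2, lies above the 8.84 to 28.1 of the other libraries, and the Thra to Thrb ratio spreads most in HFD, from 34.2 to 51.1.

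Of the receptor genes, Thra had the higher level in every library, with 29.8 to 51.1 times the FPKM of Thrb. The values are per gene, so splice forms were not told apart. The ratio therefore does not measure transcripts of hormone-binding receptor alone. Thra stood at 863, 703 and 646 CPM across the HFD libraries, 628, 672 and 586 CPM across IPA and 583, 619 and 662 CPM across Trp. HFD 1 was the highest library, and HFD 3 lay within the range of both other groups. HFD averaged 737 ± 112 CPM, IPA 629 ± 43.0 and Trp 621 ± 39.3. Trp lay -0.25 (SE 0.11) from HFD on the log2 scale and IPA -0.23 (SE 0.11), with both comparisons using the same HFD libraries. Without HFD 1 these were -0.12 and -0.10. Trp against IPA was -0.02 (SE 0.11) and ran from -0.07 to 0.07 over 17 alternatives, 12 of which kept the sign.

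The counts of Thra may include reads of another gene. Thra shares 263 bases of annotated exons, 5.7% of its own, with Nr1d1, the clock repressor REV-ERB alpha, which is encoded on the opposite strand, and no strand marking is described for these libraries. Nr1d1 stood at 86.0, 81.9 and 67.3 CPM across the HFD libraries, 50.4, 56.6 and 61.7 CPM across IPA and 49.8, 49.8 and 55.0 CPM across Trp. All HFD libraries lay above all others. Nr1d1 fell by 0.61 (SE 0.11) on the log2 scale in Trp against HFD (edgeR quasi-likelihood test, Benjamini-Hochberg adjusted p = 0.0378). Its adjusted p ran from 0.000146 to 0.25 over 17 alternatives, with 6 of them under 0.05, and leaving out any 1 library other than HFD 3 or Trp 3 ended the call. In IPA against HFD its log2 fold change was -0.48 (SE 0.11, edgeR adjusted p = 0.2), which did not pass. How much of the Thra count comes from the shared bases was not tested.

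Thrb, the receptor of the feedback on the pituitary and of hearing and vision, stood at 42.3, 47.8 and 36.1 CPM across the HFD libraries, 47.0, 47.6 and 49.7 CPM across IPA and 46.3, 45.1 and 44.3 CPM across Trp. HFD spanned more than both other groups together, and the Trp libraries lay just below the IPA libraries. As log2 fold changes, IPA stood 0.19 (SE 0.10) and Trp 0.10 (SE 0.10) from HFD, and Trp -0.09 (SE 0.10) from IPA. Without HFD 3, the lowest library, the differences from HFD became 0.09 and 0.005, and without HFD 2 they were 0.295 and 0.207. On the authors' FPKM the Trp and IPA libraries overlapped, at 7.34 to 7.75 and 7.25 to 7.57, and the sign of that difference turned.

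Crym, whose product binds triiodothyronine in the presence of NADPH and which is also a ketimine reductase, overlapped between all groups. It stood at 92.4, 71.6 and 68.3 CPM across the HFD libraries, 65.2, 72.4 and 72.6 CPM across IPA and 66.1, 86.4 and 65.6 CPM across Trp. HFD 1 and Trp 2 were the high libraries. From HFD, IPA differed by -0.15 (SE 0.13, 95% interval -0.43 to 0.14) and Trp by -0.09 (SE 0.13, 95% interval -0.38 to 0.20) in log2 units, and Trp differed from IPA by 0.05 (SE 0.13). Without HFD 1 the differences from HFD were 0.002 and 0.055, and without Trp 2 Trp differed from IPA by -0.09.

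Hr, the nuclear corepressor hairless and a direct target of the receptors, was highest in the Trp group. It stood at 32.6, 36.9 and 32.3 CPM across the HFD libraries, 32.7, 36.5 and 35.1 CPM across IPA and 41.03, 44.9 and 45.4 CPM across Trp. All Trp libraries lay above all HFD and all IPA libraries, and the HFD and IPA libraries overlapped. HFD averaged 33.9 ± 2.60 CPM, IPA 34.8 ± 1.95 and Trp 43.8 ± 2.41. In log2 units Trp exceeded HFD by 0.37 (SE 0.09), 1.29-fold, and IPA by 0.33 (SE 0.09), while IPA differed from HFD by 0.04 (SE 0.09). Over the alternatives these ran from 0.33 to 0.44, from 0.29 to 0.42 and from -0.001 to 0.10. Hr had the smallest spread within groups of the 7, with a coefficient of variation of 6.34%, against 31.9% for Dio3. The summed level of 8 microglia markers was also higher in every Trp library, at 300 to 384 CPM. It was 199 to 213 CPM in HFD and 211 to 235 CPM in IPA. Of the 8 markers 3 were called higher in Trp against HFD, beside 0.214% of all genes tested. The part of microglial content in the Hr values was not tested.

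Klf9, a Krüppel-like zinc finger factor induced by thyroid hormone and by glucocorticoids, was highest in the IPA group by its mean. It stood at 222, 284 and 276 CPM across the HFD libraries, 344, 329 and 374 CPM across IPA and 337, 312 and 241 CPM across Trp. All IPA libraries lay above all HFD libraries. Trp 3 lay inside the HFD range, while Trp 1 and Trp 2 were above it. HFD averaged 261 ± 33.7 CPM, IPA 349 ± 23.0 and Trp 296 ± 49.6. The log2 difference from HFD was 0.42 (SE 0.13) in IPA, 1.34-fold, and 0.18 (SE 0.13) in Trp, and Trp differed from IPA by -0.24 (SE 0.13). Trp against HFD was 0.08 without HFD 1 or Trp 1 and 0.31 without Trp 3, while Trp against IPA was -0.11 without Trp 3.

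Glucocorticoid-induced genes are given beside Klf9 because both hormones are known to act on it. Their 16 members summed to 560, 653 and 817 CPM across the HFD libraries, 952, 928 and 796 CPM across IPA and 1136, 1038 and 836 CPM across Trp. The sum and Klf9 were both lowest in Trp 3 among Trp and in HFD 1 among HFD, while IPA 3 had the highest Klf9 and the lowest sum of the IPA libraries, and the sum was highest in Trp 1 and Trp 2 where Klf9 was highest in IPA 3. In each of the comparisons with HFD 14 of the 16 lay above 0, with medians of 0.59 (Trp) and 0.48 (IPA) against a median of -0.002 and -0.006 over all genes tested. This list was drawn up with its direction in these libraries known. Hif3a, an inhibitory hypoxia-inducible factor subunit, averaged 2.31 ± 0.70 CPM across HFD, 5.82 ± 0.522 across IPA and 7.86 ± 2.28 across Trp. It rose by 1.77 (SE 0.25, edgeR adjusted p = 0.012) on the log2 scale in Trp against HFD, and this call ended without HFD 2, Trp 1 or Trp 2, with a replicate block and with only the 6 libraries compared, with adjusted p from 5.96e-09 to 0.0877 over 15 alternatives. The metallothionein Mt1 rose by 0.52 (SE 0.10, edgeR adjusted p = 0.0415), a call that held without HFD 3 and ended without any 1 of the other 8 libraries, with adjusted p from 0.000208 to 0.25 over 17 alternatives. Of the 16, 2 were called higher in Trp against HFD, beside 0.214% of all genes tested. In IPA against HFD none of the 16 passed, beside 0.00535% of all genes tested. There Hif3a had a log2 fold change of 1.34 (SE 0.25, edgeR adjusted p = 0.142). The part of glucocorticoid signalling in the Klf9 values was not tested.

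**Figure D3:**
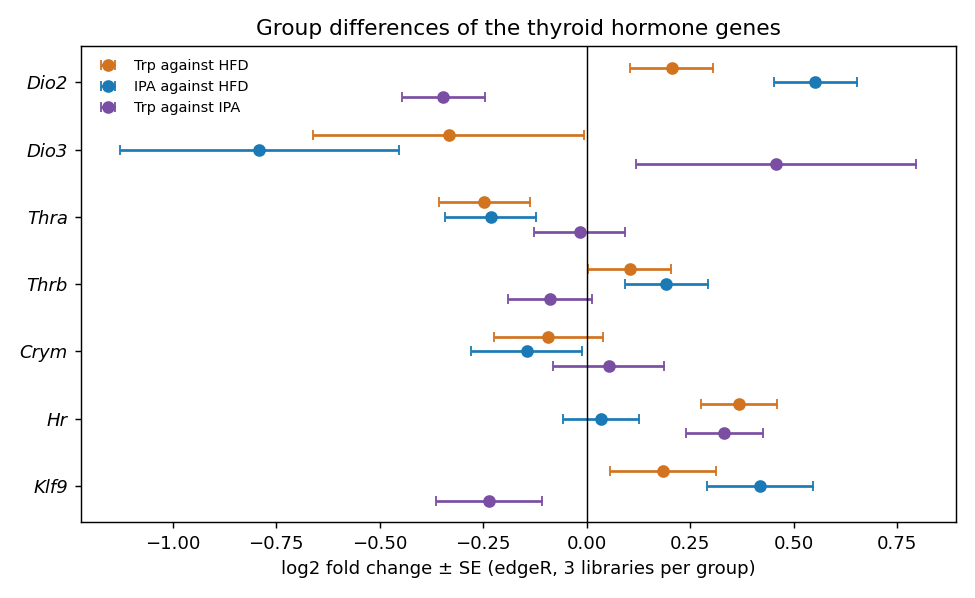
Log2 fold change (x axis) of each of the 7 genes in the 3 comparisons of groups, with bars of 1 SE from the model fitted to all genes and 9 libraries. The values for Trp against HFD and IPA against HFD share the HFD libraries; Dio2 and Klf9 lie farthest to the right for IPA against HFD, at 0.55 and 0.42, and Hr for Trp against HFD, at 0.37.

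In edgeR's quasi-likelihood test over all genes, with a Benjamini-Hochberg adjusted p under 0.05, none of the 7 genes was called in any comparison. Of all genes tested, 0.342% were called in Trp against HFD, 0.00535% in IPA against HFD and 0.0% in Trp against IPA. Leaving out 1 library moved the first count, 64 genes, to between 13 (without Trp 2) and 323 (without HFD 3). At an unadjusted p under 0.05 the members numbered 2, 3 and 2 in these comparisons, beside 11.3%, 10.4% and 4.49% of all genes. The DESeq2 Wald test called Hr in Trp against HFD, where it called 1.65% of all genes, and Dio2 in IPA against HFD, where it called 0.915%, and none in Trp against IPA, where it called 0.0803%. Limma on log2 FPKM called none of the 7, beside 0.444%, 0.0074% and 0.0148% of the genes it tested in the same order. The groups did not overlap for 1 gene in Trp against HFD (Hr), for 2 in IPA against HFD (Dio2 and Klf9) and for 3 in Trp against IPA (Dio2, Thrb and Hr), beside 15.5%, 15.2% and 11.2% of all genes tested. By direction the background was 8.05% higher and 7.43% lower in Trp against HFD, 7.19% and 8.01% in IPA against HFD, and 5.61% and 5.55% in Trp against IPA. Since the genes were chosen with these comparisons known, nothing is read from these counts. Of the 7, 4 lay above 0 in Trp against HFD and 4 in IPA against HFD, with medians of 0.10 and 0.04, and these were the same 4 genes, Dio2, Thrb, Hr and Klf9, in comparisons that share their HFD libraries.

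The sequence just upstream of Dio2 and Klf9 is shown because these were the members whose IPA libraries all lay above HFD. RefSeq promoters were matched for Dio2, Dio3, Thrb and Klf9 and not for Thra, Crym or Hr. Each line gives the 250 bases before the RefSeq transcription start on build GRCm38.p6, with matches to TGACG, the half-site of the cAMP response element, in capitals. Dio2 lies at chr12:90739039-90739288 on the minus strand and Klf9 at chr19:23140976-23141225 on the plus strand.
Dio2: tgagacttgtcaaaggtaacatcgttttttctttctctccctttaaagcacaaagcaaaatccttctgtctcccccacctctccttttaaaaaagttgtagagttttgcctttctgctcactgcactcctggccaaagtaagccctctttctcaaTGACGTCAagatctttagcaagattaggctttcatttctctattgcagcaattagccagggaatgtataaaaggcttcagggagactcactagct
Klf9: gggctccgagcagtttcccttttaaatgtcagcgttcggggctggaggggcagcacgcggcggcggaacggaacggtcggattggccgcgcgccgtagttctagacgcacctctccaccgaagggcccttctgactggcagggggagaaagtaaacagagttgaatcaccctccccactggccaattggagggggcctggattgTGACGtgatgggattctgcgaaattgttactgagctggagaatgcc

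Dio2 holds the full palindromic element TGACGTCA, 95 bases upstream of the RefSeq start, in which the half-site matches on both strands. In GENCODE M21 Dio2 begins at chr12:90738438 on the minus strand, downstream of the RefSeq start. The element lies farther upstream of that start. Klf9 holds 1 half-site, 46 bases upstream. The half-site is not particular to these genes. It was also found in 1 of the 2 Thrb promoters, 56 bases upstream, though the IPA and HFD libraries overlapped for Thrb. The Dio3 promoter held none. Over 32851 RefSeq promoters searched on both strands in the same window, 17.8% held TGACG and 1.55% held TGACGTCA. AGGTCA, the half-site bound by thyroid hormone receptors, was found in neither the Dio2 nor the Klf9 window, against 14% of all promoters. It was found in 1 of the 2 Thrb promoters, 184 bases upstream. A match describes these letters and does not show binding.

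The rest of the pathway was followed in lists drawn up by role, 64 genes of which 59 were tested. In edgeR's test none of the 59 was called in any comparison. At an unadjusted p under 0.05 they numbered 9 in Trp against HFD, 7 in IPA against HFD and 6 in Trp against IPA, beside 11.3%, 10.4% and 4.49% of all genes tested. DESeq2 called 2 in Trp against HFD, Dbp and Mbp, beside 1.65% of all genes, and none in the other comparisons, and limma on log2 FPKM called none of the 50 it tested. Their median log2 fold change from HFD was 0.02 in Trp and -0.03 in IPA, and between Trp and IPA it was -0.02. Over all genes tested it was -0.002, -0.006 and 0.008.

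The transporters carry thyroid hormone across the blood-brain barrier and into neurons. Of 7, 6 lay below 0 in Trp against HFD (median -0.18) and 6 in IPA against HFD (median -0.175). These were the same 6 genes, in comparisons that share their HFD libraries. In Trp against IPA 4 lay above and 3 below 0 (median 0.03). Slco1c1, the thyroxine transporter OATP1C1, differed by -0.18 (SE 0.15, 95% interval -0.51 to 0.15) in Trp against HFD and by -0.15 (SE 0.15, 95% interval -0.47 to 0.18) in IPA against HFD. Slco1a4, an organic anion transporter of brain endothelium, had a log2 fold change of -0.48 (SE 0.13, edgeR adjusted p = 0.296) in IPA against HFD, with all IPA libraries below all HFD libraries. The sum of 7 endothelial markers was 146 to 156 CPM in HFD, 118 to 131 in IPA and 133 to 159 in Trp. Of these 7 markers 5 lay below 0 in Trp against HFD (median -0.31) and 6 in IPA against HFD (median -0.29), and none was called. The part of endothelial content in the transporter values was not tested.

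Of the carriers, Ttr, the thyroxine carrier transthyretin made by the choroid plexus, ran from 25.7 CPM in Trp 3 to 1288 CPM in Trp 1 and overlapped between all groups. The sum of 9 choroid plexus markers, Ttr among them, ran over 38.2 to 1434 CPM in the same libraries. Serpina7 gave 0 counts in every library and Alb 0 to 13. Dio1, the deiodinase of liver and kidney, gave 0 to 4 counts and was not tested, where a library with no count could still hold 0.0584 to 0.0751 CPM (3 counts). Of 4 tested enzymes and factors that insert selenocysteine and the selenophosphate synthetase Sephs2, none was called. Pstk, the kinase that prepares the selenocysteine transfer RNA, had a log2 fold change of 0.20 (SE 0.10) in Trp against HFD, and Sephs2 one of -0.07 (SE 0.09) in IPA against HFD.

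Genes whose products mark the type 2 deiodinase with ubiquitin or remove it gave no call in edgeR's test. Marchf6, the ubiquitin ligase TEB4, had a log2 fold change of -0.17 (SE 0.09) in Trp against HFD, and Ube2g2, its ubiquitin-conjugating enzyme, one of 0.17 (SE 0.09) in IPA against HFD. The other 3 members lay between -0.17 and 0.14 in both comparisons.

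Among the receptors' partners, Rxra, the retinoid X receptor alpha, stood at 28.8, 28.2 and 28.7 CPM across the HFD libraries, 33.6, 36.3 and 34.6 CPM across IPA and 35.2, 40.1 and 32.0 CPM across Trp. All HFD libraries lay below all others. The log2 fold change was 0.32 (SE 0.10, edgeR adjusted p = 0.232) for Trp against HFD and 0.29 (SE 0.10, edgeR adjusted p = 0.358) for IPA against HFD, so that neither passed. Rxrg, the form of striatal neurons, ran from 10.1 CPM in HFD 3, the library with the lowest striatal sum, to 61.6 CPM in IPA 3, the library with the highest. Ncor1, the main corepressor of these receptors, lay at -0.01 (95% interval -0.21 to 0.19) on the log2 scale in Trp against HFD, with a sign that turned without a filter and on FPKM, and the coactivator Ncoa1 at 0.02 (95% interval -0.18 to 0.22). Tbl1xr1 of the corepressor complex and the coactivator Crebbp stood lower in all Trp than in all HFD libraries, at -0.25 (SE 0.10, edgeR adjusted p = 0.353) and -0.23 (SE 0.09, edgeR adjusted p = 0.339). Tbl1x, another subunit of the corepressor complex, had a log2 fold change of 0.20 (SE 0.10) in IPA against HFD.

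Other known brain targets of thyroid hormone lay on both sides of 0. Of 17 tested, 9 lay above and 8 below 0 in Trp against HFD, and 5 above and 12 below in IPA against HFD. Mbp, the myelin basic protein gene whose transcription the hormone drives during development, stood at 4718, 5049 and 7356 CPM across the HFD libraries, 4789, 4348 and 3890 CPM across IPA and 4176, 3589 and 3635 CPM across Trp. HFD 3 was the highest, as it was for the sum of oligodendrocyte markers, and all Trp libraries lay below all HFD libraries. The log2 fold change of Mbp was -0.59 (SE 0.15, edgeR adjusted p = 0.181) in Trp against HFD and -0.39 (SE 0.15, edgeR adjusted p = 0.431) in IPA against HFD. Dbp, a clock-controlled transcription factor, had a log2 fold change of -0.48 (SE 0.13, edgeR adjusted p = 0.173) in Trp against HFD, with all Trp libraries below all HFD libraries. The targets Nrgn, which encodes neurogranin, and Sema7a, a semaphorin, lay at -0.02 (SE 0.14) and 0.13 (SE 0.11) in Trp against HFD.

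Of 7 tested genes of the hypothalamus-pituitary-thyroid axis none was called in edgeR's test. In Trp against HFD 5 lay above and 2 below 0, and in IPA against HFD 4 above and 3 below. Itgav and Itgb3, the subunits of an integrin that binds thyroxine at the cell surface, had log2 fold changes of -0.11 (SE 0.12) and -0.06 (SE 0.23) in Trp against HFD and 0.18 (SE 0.12) and -0.38 (SE 0.24) in IPA against HFD.

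**Figure D4:**
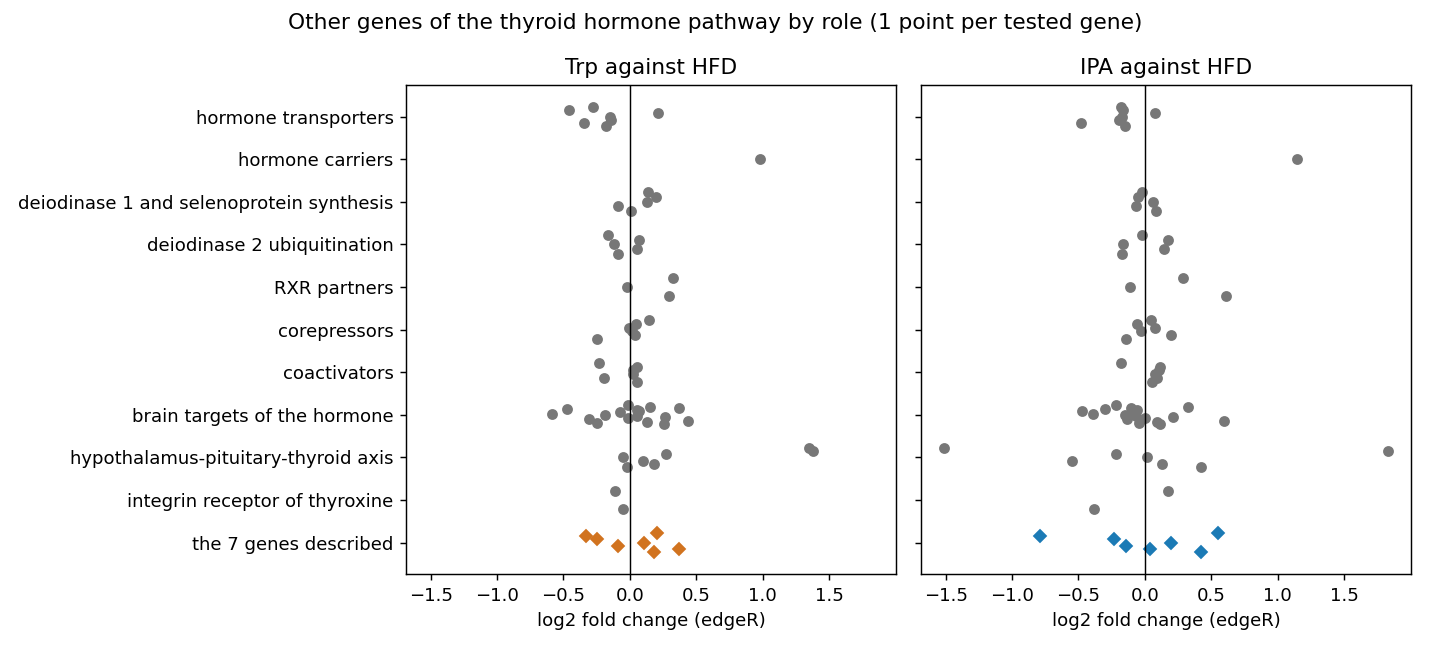
Log2 fold change (x axis) of every tested gene of the thyroid hormone pathway, grouped by role, for Trp against HFD (left) and IPA against HFD (right); grey points are the 59 other pathway genes and coloured diamonds the 7 genes described. In both panels the same 6 of 7 hormone transporters lie below 0, while the brain targets lie on both sides. The panels share the HFD libraries.

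The genes whose levels followed each member most closely were found by the Pearson correlation of log2 CPM over the 9 libraries, among 12099 genes with a mean FPKM of at least 1 that were not predicted genes. These values share library, depth and tissue makeup and are a description. As the highest of 12099 correlations over only 9 libraries, they are raised by selection. For Dio2 they were Ccng2, encoding cyclin G2 (r = 0.95), the glycolytic regulator Pfkfb3 (r = 0.942) and Nexn (r = 0.938). Those for Klf9 were Gclc, encoding the catalytic subunit of glutamate-cysteine ligase (r = 0.991), the cohesin loader gene Nipbl (r = 0.988) and Utp18 (r = 0.986). Hr was followed by Ift172 of intraflagellar transport (r = 0.956), Cwh43 (r = 0.928) and Olfml3 (r = 0.923). Thra went with Pnma1 (r = 0.971), Abhd17a (r = 0.966) and Pitpnm1 (r = 0.965). Closest to Thrb were Smpdl3b (r = 0.981), Ido1, which encodes a tryptophan-degrading dioxygenase (r = 0.976), and Gcnt2 (r = 0.966). Crym was followed by Nme3 (r = 0.96), Pcif1 (r = 0.906) and Mmab (r = 0.89). Dio3 was below the level needed.

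In the deposited table the genes lie at chr12:90691326-90705212 (Dio2, minus strand), chr12:110245502-110247531 (Dio3, plus), chr11:98631464-98659832 (Thra, plus), chr14:4431611-4809435 (Thrb, minus), chr7:119785603-119801334 (Crym, minus), chr14:70789652-70810988 (Hr, plus) and chr19:23118590-23145498 (Klf9, plus). All 7 are protein-coding in GENCODE M21. The submitters' processing notes name mm10, but none of these starts equals that of GENCODE M21 on that build, and Thrb is on the plus strand there. The build of the table's coordinates is therefore not settled. Dio2 shares 100 exon bases with the noncoding gene Gm26512 on the opposite strand, and no other member besides Thra shares exon bases with another gene in that annotation.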

How the data were processed

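RNA-seq libraries of 9 mice, 3 per group, were analysed. The authors deposited 1 table with whole-number counts per gene and library, without scaling per the file headers, and FPKM, which the authors scaled to gene length and library size, per the file headers and the labels. StringTie 2.1.3b and mm10 appear in the submitters' processing notes; for the aligner, counter, annotation and strand setting the entry is: not given in the sources used here. Columns were matched to samples through the labels, with 0 left over. The authors' own fold changes and tests were not used here.

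Counts were fitted in R 4.3.3 with edgeR 4.0.16: filterByExpr with a minimum count of 10, TMM, a robust quasi-likelihood fit with 1 mean per group over all 9 libraries, two-sided, Benjamini-Hochberg over 18690 genes. CPM use TMM-adjusted library sizes; log2 CPM for likeness used a prior count of 2. Nothing states separate extractions or litters, so p-values measure the spread between these 9 samples. Alternatives were DESeq2 1.42.0, RLE and upper quartile scaling, no filter, limma 3.58.1 on log2 FPKM with pseudocounts of 0.5 and 0.1 (genes reaching an FPKM of 1 in 3 or more libraries), the 6 libraries compared alone, a replicate block, and leaving out each library. The procedure was tested on simulated data. The simulated libraries did not differ in tissue makeup, so that test does not cover such differences.

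The members, lists and rules were chosen with earlier results of these data known. Named besides the members are the list genes called in any comparison, per role the gene with the smallest unadjusted p in each comparison with HFD, genes listed by name (Slco1c1, Dio1, Ttr, Rxra, Rxrg, Ncor1, Ncoa1, Nr1d1), and the 3 genes most correlated with each member, except 2 genes that are not reported here; Nrgn and Sema7a, Alb and Serpina7 were named after their values were seen. Sequences are from RefSeq (GRCm38.p6) and GENCODE M21. Figures used Python 3.11.15 and matplotlib 3.10.9.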

Additional observations from a re-analysis of the deposited data

How the results depend on the processing

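Of 357 values of the 7 genes under the alternatives, 352 moved by no more than 1 SD of the replicates. The other 5 were for Trp against IPA with limma on log2 FPKM: Dio2 at -0.249 and -0.255 and Thrb at 0.027 and 0.029 (pseudocounts 0.5 and 0.1), and Hr at 0.419 (pseudocount 0.1). Leaving out 1 library can hardly move a mean of 3 by that much, so the count of 352 does not show stable values. Dio3 in Trp against HFD went from -0.333 to -0.031 without HFD 1 and is among the 352. Depth limits Dio3, with 46 to 138 counts, and Dio1, with 0 to 4. The replicate numbers were not taken as pairs. Same-numbered libraries of different groups had correlations of deviations from -0.578 to 0.391, and differently numbered ones from -0.366 to 0.593. With so few libraries that differ in tissue makeup, these values cannot exclude a pairing. With a replicate block 23 genes were called in Trp against HFD and 0 in IPA against HFD, against 64 and 1 without it.

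The number of genes called moved with the method; the cause was not tested. Trp against HFD gave 309 with DESeq2, 97 without a filter and 8 with only the 6 libraries compared. IPA against HFD gave 171, 6 and 2 in the same order. Trp against IPA gave 15 with DESeq2, 3 without a filter and 2 with limma at either pseudocount, against 0. Leaving out 1 library gave 13 to 323 genes for Trp against HFD (323 without HFD 3, 13 without Trp 2, and within 1.5 times of 64 only without Trp 3), 0 to 52 for IPA against HFD (52 without HFD 3) and 0 to 1 for Trp against IPA. DESeq2 called 2 pathway genes in Trp against HFD, against 0.

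Uncalled pathway genes near 0 turned sign; the cause was not tested. In Trp against HFD, Ncor1 gave 0.004 without a filter and 0.103 and 0.104 with limma. In Trp against IPA, limma gave 0.032 and 0.036 for Crebbp, 0.027 and 0.027 for Ncoa1, 0.043 and 0.044 for Ncor1, 0.067 and 0.068 for Sephs2, 0.086 and 0.09 for Slco1c1 and 0.014 and 0.015 for Tbl1xr1, and upper quartile scaling gave 0.0 for Sephs2. Leaving out 1 library, Trp against HFD ran from -0.305 to 0.059 for Itgb3, -0.045 to 0.09 for Ncoa1, -0.065 to 0.056 for Ncor1, -0.15 to 0.847 for Rxrg, -0.032 to 0.131 for Tbl1x and -0.106 to 2.026 for Ttr. IPA against HFD ran from -0.087 to 0.047 for Marchf6 and -0.089 to 0.005 for Pstk. Trp against IPA ran from -0.104 to 0.021 for Crebbp, -0.125 to 0.011 for Ncoa1, -0.055 to 0.108 for Rxra, -0.06 to 0.008 for Sephs2, -0.161 to 0.128 for Slco1c1 and -1.246 to 0.407 for Ttr.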
